A study of Homo sapiens with 18 samples.

Results

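ERMAP, KEL, FAXDC2 and TUBB1 are 4 of the 13051 transcripts, 1 per gene, for which readthrough reads of nascent RNA were counted in K562 cells. They were chosen from earlier results of these data, for their high readthrough levels after 18 h of imatinib, so their values under imatinib are given as a description without a test. K562 is an established cell line from a chronic myeloid leukemia in blast crisis. It carries the Bcr-Abl1 fusion kinase, which imatinib inhibits. The question of the study was whether imatinib changes how far RNA polymerase II transcribes past the ends of genes.

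Nascent RNA was isolated from the chromatin of 6 groups of K562 cultures, with 3 libraries in each group, and sequenced as long PacBio reads. IM 1h and IM 18h cells received 1 µM imatinib for 1 h and 18 h, and CTRLim was the untreated control prepared with them. JTE 1h cells received 5 µM JTE-607, an inhibitor of the endonuclease that cleaves pre-mRNA at the poly(A) site, for 1 h. KCl 45min cells were shocked with 110 mM KCl for 45 min, and CTRL was the untreated control of JTE 1h and KCl 45min. All cells were of the same line and were grown in suspension with serum. The labels call the libraries of a group biological replicates. A read was a readthrough read of a gene when it overlapped the last exon of its transcript and had its 3′ end beyond a boundary set 100 nt downstream of that exon. Levels are readthrough reads per 1000000 library reads, abbreviated RPM. An RPM value rises both when a gene is transcribed more and when fewer of its transcripts are cleaved at the end, and these cannot be told apart here, nor can more cells with the transcript from more RNA per cell.

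The 4 genes belong to the related lineages of red cells and platelets, which share a common progenitor. Red cell precursors build a membrane that carries blood group antigens, while megakaryocytes become large and polyploid and shed platelets. The transcription factors GATA1 and TAL1 act in both lineages. ERMAP encodes a red cell membrane protein of the butyrophilin-like family that carries the Scianna blood group. KEL encodes the Kell blood group glycoprotein, a zinc endopeptidase of the M13 family that is bound to the membrane protein XK. FAXDC2 encodes a protein of the fatty acid hydroxylase superfamily that is known from megakaryocyte differentiation. TUBB1 encodes the beta tubulin of megakaryocytes and platelets, the main tubulin of the microtubule ring that gives platelets their disc shape.

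Libraries held between 229855 and 1349556 reads, of which 8422 to 57982, or 2.15% to 5.40%, were readthrough reads. Of the raw reads, 84.3% to 91.6% mapped in the 9 libraries of CTRLim and imatinib and 40.5% to 44.1% in the other 9. CTRLim was taken as the control of imatinib, since between the sets a treatment effect cannot be told apart from the set, and a level set beside one of the other set is a description. Replicates 2 and 3 of CTRLim did not differ beyond the sampling noise (chi-square per degree of freedom 1.11 over 319 genes, p = 0.0945), nor did replicates 1 and 2 of IM 1h (1.01 over 512 genes, p = 0.428, with 1.04 between replicates 1 and 3 and 1.14 between 2 and 3), while replicate 1 of CTRLim differed from the other two (1.78 and 1.74). Each such pair was counted as 1 sample in means and standard deviations, which leaves n = 2 for CTRLim and IM 1h. The libraries held some of the markers listed for the labelled line. Of 12 markers listed for K562, 11 were in the table, and in CTRLim the gamma globin gene HBG1 stood at 333 RPM ± 132 (SD, n = 2). Others were sparse there, with 0 reads for HBZ, 2 each for HBA1, HBA2 and ABL1 and 5 for GATA1. The 6 granulocyte and monocyte markers in the table had 0 reads in CTRLim and in IM 18h, and 4 in IM 1h, 3 in JTE 1h and 2 each in CTRL and KCl 45min. The 5 lymphoid markers had 2 reads in CTRLim, 5 in IM 1h and 0 in IM 18h, and 2 in CTRL, 3 in JTE 1h and 4 in KCl 45min.

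The ends of the counted transcripts decide what was counted, so they are shown first. Positions are of GRCh38 with GENCODE 44. ERMAP (ENST00000372514) lies on chromosome 1 from 42825560 to 42844989 on the plus strand, and its last exon, exon 11, is 2473 bases long. KEL (ENST00000355265) lies on chromosome 7 from 142941114 to 142962363 on the minus strand and ends in exon 19 of 300 bases. FAXDC2 (ENST00000326080) lies on chromosome 5 from 154818492 to 154850603 on the minus strand and ends in exon 9 of 1981 bases. TUBB1 (ENST00000217133) lies on chromosome 20 from 59019429 to 59026654 on the plus strand and ends in exon 4 of 2950 bases. Each transcript held the poly(A) signal AATAAA in its last 50 bases, as did 60.4% of the 12704 transcripts of the table with a match in GENCODE. The windows of 30 bases around it, in which capitals mark the signal, show the site that the readthrough reads had passed. The signal was followed by 19 bases before the transcript end in ERMAP, 31 in KEL, 14 in FAXDC2 and 20 in TUBB1.
ERMAP, chr1:42844953-42844982, plus strand: gtacagttttaaAATAAAagtttggtattt
KEL, chr7:142941133-142941162, minus strand: ttctgttccaaaAATAAAagctggcacttg
FAXDC2, chr5:154818494-154818523, minus strand: gcaagcatgtaaAATAAActggtcttcatg
TUBB1, chr20:59026617-59026646, plus strand: tatttcagactaAATAAAttccttttcttg

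The regions past the ends are not empty. ZNF691-DT, on the opposite strand, covers the end of ERMAP and reaches 1438 nt past it, and ZNF691 begins 1584 nt past it on the same strand. Past KEL, LLCFC1 begins at 246 nt on the opposite strand and TRPV5 at 7368 nt on the same strand. LARP1 begins 887 nt past FAXDC2 on the opposite strand. ATP5F1E, on the opposite strand, covers the end of TUBB1 and 1180 bases of its last exon. Farther past TUBB1, the gene ENSG00000289837 begins at 5972 nt on the same strand and PRELID3B at 6491 nt on the opposite strand. Whether the counting used the strand of a read is not given in the sources used here, so reads of these partners cannot be told apart from readthrough of the 4 genes by the counts alone. The counts of ZNF691, TRPV5, LARP1 and ATP5F1E themselves are given further on, and those of PRELID3B are not. ZNF691-DT, LLCFC1 and ENSG00000289837 had no matched transcript among those counted, so no count of them can be given.

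**Figure D1:**
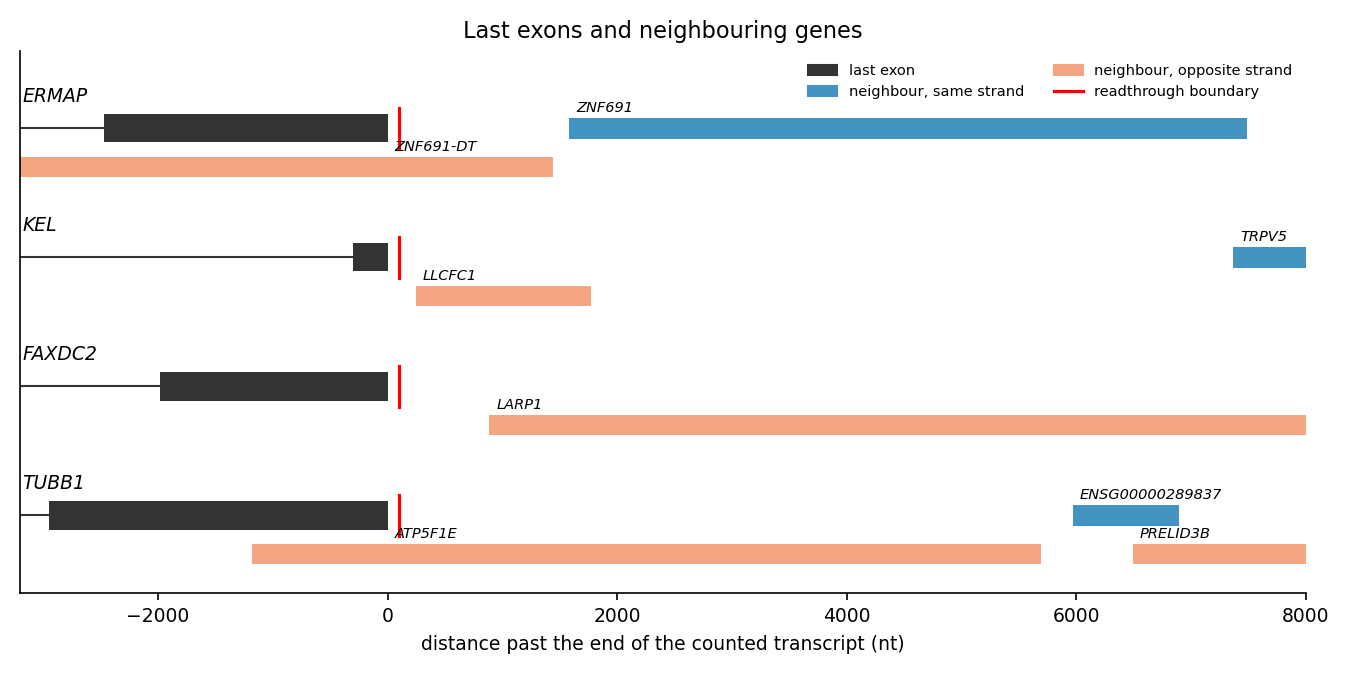
Last exons of the 4 genes and their neighbours, by distance in nt past the end of the counted transcript (x axis), with the readthrough boundary at 100 nt as a red line. ERMAP and TUBB1 have a gene on the opposite strand over their end, and FAXDC2 and KEL have one that begins at 887 nt and 246 nt past it.

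Among the 4 genes, the red cell gene ERMAP had the most readthrough reads in every group of the imatinib set. It had 5, 4 and 9 readthrough reads in the CTRLim libraries, 11, 14 and 20 in IM 1h and 81, 96 and 100 in IM 18h. CTRLim stood at 17.3 RPM ± 6.30 (SD, n = 2). IM 1h stood at 22.6 RPM ± 3.20 (SD, n = 2), and the level of IM 18h was 78.5 RPM ± 6.69 (SD, n = 3). IM 1h and CTRLim libraries overlapped, and each IM 18h library stood far above both groups. The pooled level at 18 h was 5.45 times that of CTRLim, with an exact 95% interval of 3.38 to 9.33, and at 1 h it was 1.54 times (0.874 to 2.83). Here and below such intervals cover counting error only.

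KEL was the gene with the fewest reads, and in the imatinib set its reads lay almost wholly in IM 18h. CTRLim had 0 reads in each library, IM 1h had 0, 1 and 0, and IM 18h had 10, 11 and 20. A count of 0 in the CTRLim group allows a level of up to 2.38 RPM, taken as 3 reads over the group, against 11.4 RPM ± 3.17 (SD, n = 3) in IM 18h. At the IM 18h level, 14.5 reads would have been counted in CTRLim. The IM 18h level was thus at least 4.84-fold higher than CTRLim by this floor. The lower end of the exact 95% interval of that ratio was 3.76, and the floor gave at least 2.77-fold without CTRLim replicate 2 and at least 1.61-fold when 3 reads were allowed to each library. Against IM 1h the level was 23.6 times as high with an interval of 3.997 to 953, since IM 1h held 1 read, and without IM 1h replicate 2, which held it, at least 5.65-fold higher. Without IM 1h replicate 1 or 3 the ratio was 15.8 and 14.3. The 1 read in IM 1h against 0 in CTRLim gives no fold. KEL had 1 read in each CTRL library, however, so reads were present in untreated cells of the other set, and the IM 18h level was 3.95 times that of CTRL (1.26 to 19.9), in a comparison across the library sets.

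FAXDC2 was the gene that stood apart already at 1 h. It had 0, 1 and 0 readthrough reads in CTRLim, 5, 7 and 8 in IM 1h and 38, 37 and 40 in IM 18h. Each IM 1h library, at 7.43, 12.2 and 9.97 RPM, lay above all 6 untreated libraries of both sets, whose highest value was 5.54 RPM, and each IM 18h library lay above all IM 1h libraries. Of the 3159 genes with at least 10 reads over the CTRLim and IM 1h libraries, 12.1% had every IM 1h library above every CTRLim library. The share above all 6 untreated libraries was not counted. The pooled level was 12.3 times that of CTRLim at 1 h (1.97 to 511) and 40.7 times at 18 h (7.16 to 1621), and the width of these intervals comes from the single CTRLim read. Without CTRLim replicate 2, which held that read, the levels were at least 2.35-fold and 7.76-fold higher. Against CTRL, which had 3 reads, the IM 18h level was 11.1 times as high (3.69 to 54.5), in a comparison across the library sets. From 1 h to 18 h it grew 3.30 times (2.04 to 5.61).

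TUBB1, the platelet tubulin, had its reads mostly in IM 18h. They numbered 0, 1 and 0 in CTRLim, 1, 3 and 3 in IM 1h and 34, 28 and 31 in IM 18h. Of the IM 1h libraries, 2 lay above every CTRLim library and 1 did not. At 18 h its level was 27.0 RPM ± 7.94 (SD, n = 3), which is 32.9 times the pooled level of CTRLim (5.76 to 1314) and 7.63 times that of IM 1h (3.56 to 19.5). Without CTRLim replicate 2, which held the only CTRLim read, it was at least 6.28-fold higher than CTRLim. The ratio of IM 1h to CTRLim was 4.31 with an interval of 0.554 to 194, which includes no difference.

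**Figure D2:**
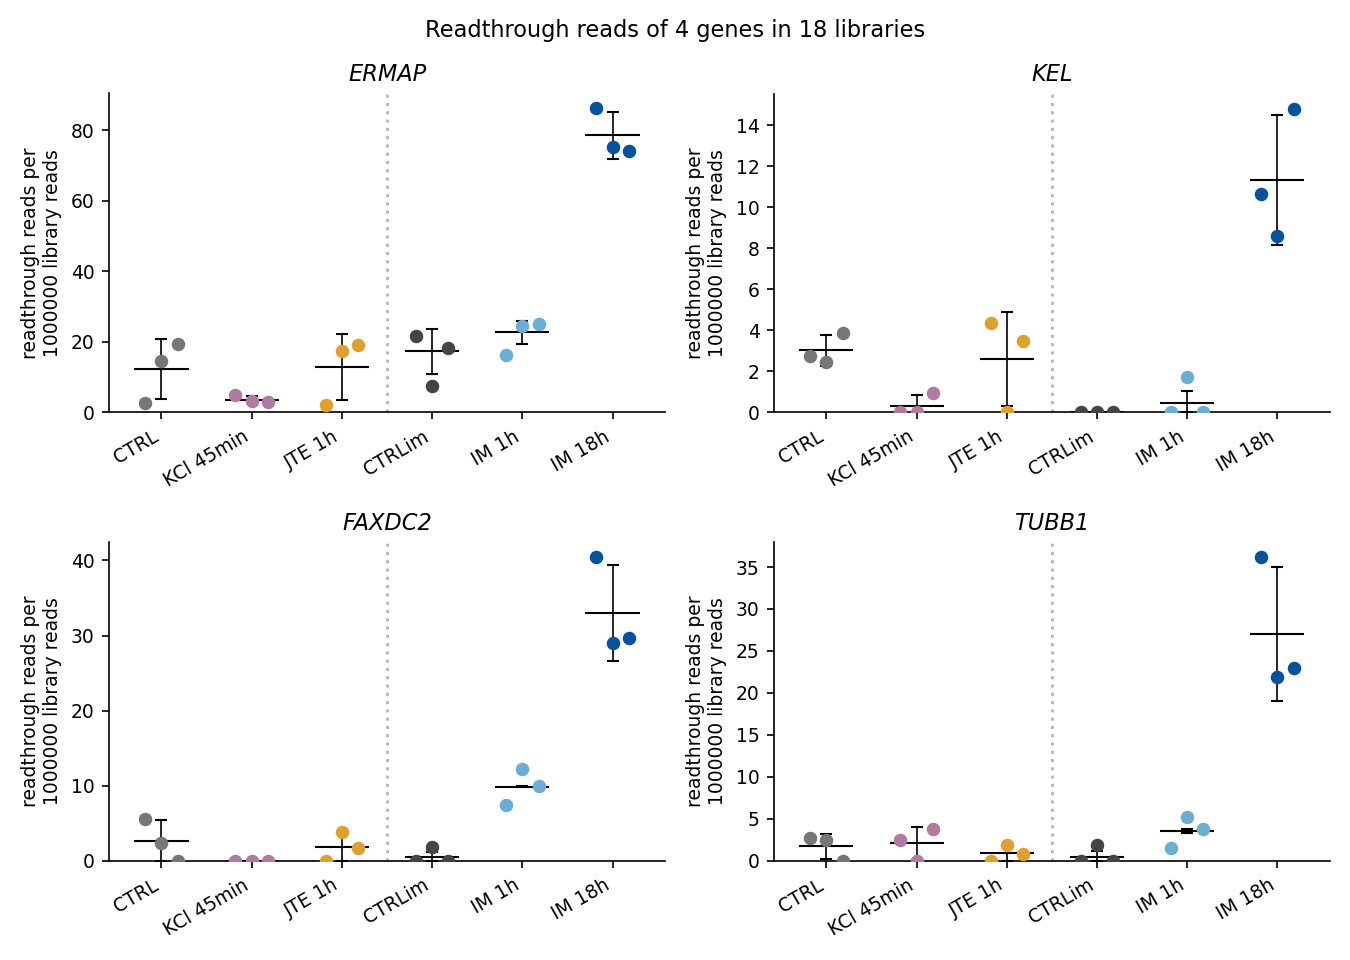
Readthrough reads per 1000000 library reads (y axis, a scale of its own for each gene) in the 18 libraries of 6 groups, with points for libraries, lines for the group mean and bars for the SD, in which the pairs of libraries within sampling noise count once. The dotted line parts the 2 library sets, and in each of the 4 genes all 3 IM 18h points lie above every other point.

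In all 4 genes each IM 18h library lay above every library of the other 5 groups. Of the 1386 genes tested for IM 18h against CTRLim, 13.3% had all IM 18h libraries above all CTRLim libraries, and 8.49% of 1720 did so against IM 1h. Since the 4 genes were chosen on these values, nothing is read from their count. The fitted log2 change from 1 h to 18 h was 1.83 (SE 0.230) for ERMAP, 1.72 (SE 0.353) for FAXDC2 and 2.90 (SE 0.470) for TUBB1, while that of ERMAP from CTRLim was 0.61 (SE 0.412) at 1 h and 2.43 (SE 0.344) at 18 h. ERMAP, TUBB1 and KEL overlapped between IM 1h and at least one untreated group, and only FAXDC2 of the 4 did not. The order of the other groups was not resolved. For ERMAP the order of means below IM 18h was IM 1h, CTRLim, JTE 1h, CTRL and KCl 45min, and each neighbouring pair overlapped, as did all neighbours below IM 18h for TUBB1 and KEL.

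**Figure D3:**
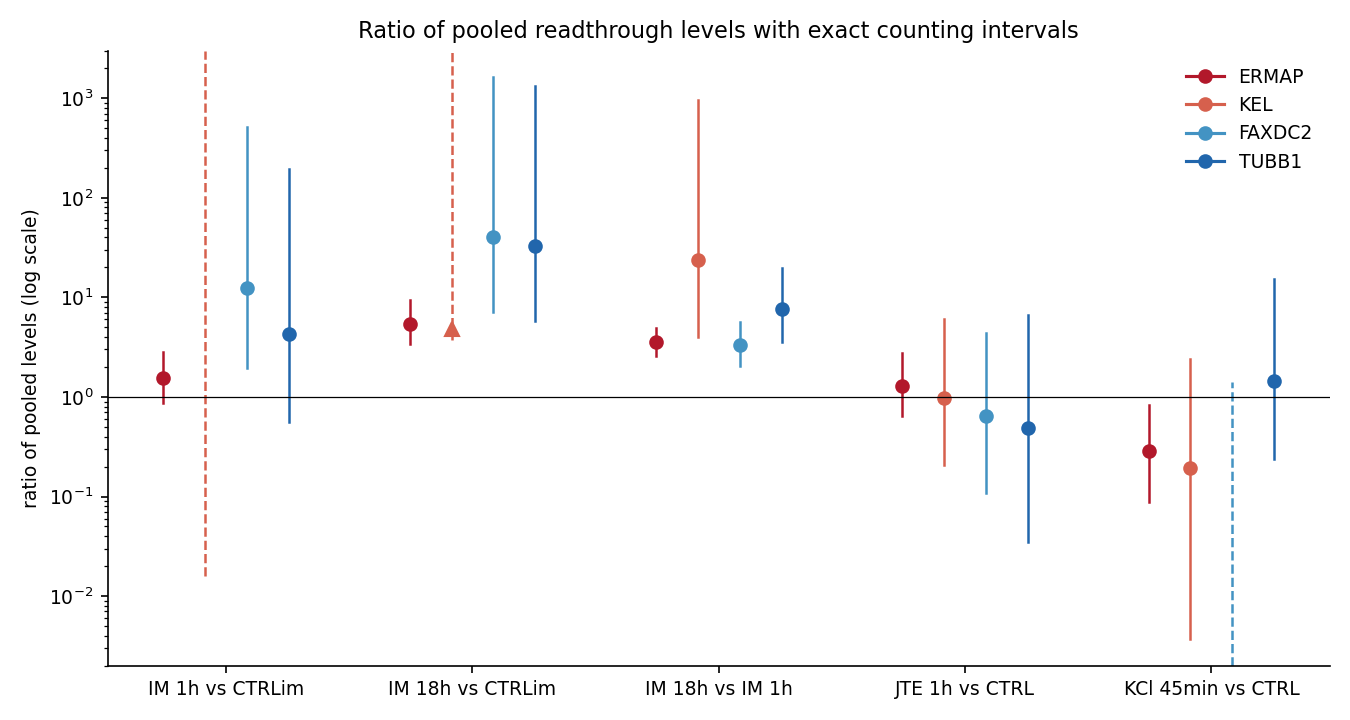
Ratio of pooled readthrough levels (y axis, log scale) of the 4 genes in 5 comparisons, with exact 95% intervals as vertical lines that end at the limits of the axis. Dashed lines mark a group with 0 reads and the triangle the bound of at least 4.84-fold for KEL. At IM 18h all intervals lie above 1, but the 4 genes were chosen on these levels, so nothing is read from it. At JTE 1h all intervals include 1, and at KCl 45min that of ERMAP lies below 1 and those of the other genes include 1.

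JTE-607 inhibits cleavage directly. The 4 genes were named for their levels after imatinib, but with the values of all 18 libraries known, so the tests under JTE-607 and KCl are not independent of that choice. ERMAP had 1, 9 and 22 reads in JTE 1h and 1, 6 and 5 in CTRL, or 12.95 RPM ± 9.37 (SD, n = 3) against 12.2 ± 8.53 (SD, n = 3). Its log2 fold change was 0.21 (SE 0.724, edgeR's quasi-likelihood test, Benjamini-Hochberg adjusted p = 0.923). In that comparison 0.103% of the 969 genes tested were called, and their median log2 fold change was 0.49. In replicate 1 of JTE 1h 3.06% of the library reads were readthrough reads, against 5.40% and 5.05% in replicates 2 and 3. Without replicate 1 edgeR called 67 of 840 genes as higher and 2 as lower. For ERMAP, replicate 1 of JTE 1h, at 2.18 RPM, lay below the other JTE 1h libraries at 17.5 and 19.2 RPM, and the range of CTRL was as wide. FAXDC2 had 0, 2 and 2 reads in JTE 1h against 2, 1 and 0 in CTRL, TUBB1 0, 1 and 1 against 1, 1 and 0, and KEL 2, 0 and 4 against 1, 1 and 1. These 3 genes had too few reads for the fit, and the exact two-sided permutation test of 3 libraries against 3, which cannot give a p below 0.1, gave p = 0.8 for FAXDC2, 0.6 for TUBB1 and 0.9 for KEL. The pooled ratios ran from 0.485 to 1.29, and the upper bounds of their intervals from 2.76 for ERMAP to 6.70 for TUBB1, so that by counting error alone increases up to these sizes remain possible.

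Under KCl the 4 genes had few reads. ERMAP had 2, 1 and 3 reads in KCl 45min, or 3.63 RPM ± 1.09 (SD, n = 3), which was 8.61 RPM below CTRL, but CTRL replicate 1 lay below the KCl libraries (exact permutation test, two-sided, p = 0.4). Its pooled ratio to CTRL was 0.289 (0.0891 to 0.833), an interval that leaves out the spread between the CTRL libraries. The intervals of FAXDC2, TUBB1 and KEL included 1. KEL had 1 read in all KCl libraries together and lay 2.71 RPM below CTRL (unpaired exact permutation test, p = 0.1, the smallest that 3 libraries against 3 allow, and 0.7 after adjustment over the 7 permutation tests made). It was lower in each of the 3 same-numbered pairs of libraries, with no overlap between the groups. The same held without overlap for 28.0% of the 378 genes tested, but these had at least 30 reads and KEL was not among them. FAXDC2 had 0 reads, which allows up to 1.69 RPM, against 2.66 RPM ± 2.78 (SD, n = 3) in CTRL (exact p = 0.4), and TUBB1 had 1, 0 and 4 reads against 1, 1 and 0 (exact p = 1). No difference of these 7 had an adjusted p below 0.7, and none could have passed 0.05 with 3 libraries against 3.

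The red cell genes around ERMAP and KEL were described by a list of 61 genes of the red cell membrane and blood groups, of which 48 were in the table. Only 7 had the 30 reads over 6 libraries that a test needed. Of these, 3 rose at 18 h against CTRLim and 0 fell, where 5.19% of all 1386 genes tested rose and 8.95% fell (edgeR's quasi-likelihood test, adjusted p under 0.05). Their median log2 fold change was 1.32, against -0.01 over all genes tested. The fewer reads a gene had in CTRLim, the higher it had to stand in IM 18h to reach 30 reads. The count and the median therefore do not speak for the list as a whole. With the reads of the 48 genes added up, the list stood between 51.8 and 104 RPM in the CTRLim libraries, 76.8 and 106 in IM 1h and 159 and 179 in IM 18h. Few genes weighed heavily in this sum. Of its 599 reads in IM 18h, 137 were of GYPE, 61 of TMOD1 and 48 of GYPB, against 6, 2 and 1 of 83 in CTRLim.

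The genes called on that list were GYPE, GYPB and TMOD1, which held 6, 1 and 2 reads in CTRLim and so reached the minimum through IM 18h. In the fit with no minimum of reads they were called too, with adjusted p = 6.16e-07, 0.0024 and 0.00126 from edgeR. GYPE and GYPB are genes of the glycophorin family, whose proteins are sialoglycoproteins of the red cell surface. GYPE had 4, 1 and 1 reads in CTRLim, 8, 3 and 10 in IM 1h and 50, 47 and 40 in IM 18h, with a log2 fold change at 18 h of 2.97 (SE 0.527, adjusted p = 5.87e-05 from edgeR) and a pooled ratio of 8.08 (3.62 to 22.4). GYPB had 1, 0 and 0 reads in CTRLim and 13, 12 and 23 in IM 18h, with a log2 fold change of 3.84 (SE 0.884, adjusted p = 0.00159 from edgeR). Reads may be split between near copies of this family by the mapping, so the separate values are uncertain. TMOD1, tropomodulin, caps the actin filaments of the red cell membrane skeleton. It had 2, 0 and 0 reads in CTRLim and 13, 28 and 20 in IM 18h (log2 fold change 3.30, SE 0.742, adjusted p = 0.00134). The list genes with enough reads that did not pass were the glucose transporter SLC2A1, with a log2 fold change of 0.92, the transporter ABCB6 with 1.32, the Rh-associated glycoprotein RHAG with 1.02 and the Vel blood group gene SMIM1 with 0.80. GYPB lost its call with CTRL as control, and without IM 18h replicate 3 it had too few reads to be tested. DESeq2 gave no adjusted p for GYPB and TMOD1.

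Against IM 1h, 4 of the 7 list genes rose at 18 h and 0 fell, where 4.19% of 1720 genes rose and 14.1% fell. These 4 had 4 to 21 reads in IM 1h and reached the minimum through IM 18h, so this count does not speak for the list either, and with no minimum of reads 3 of them were called. The background is lopsided because the median log2 change of all genes was -0.30 on this scale. TMM scaling, which centres most genes on no change, brought it to -0.01 and the calls from 72 higher and 243 lower to 114 higher and 95 lower, and it left the same 4 genes called. GYPB, TMOD1 and GYPE rose by 2.70, 1.93 and 1.93 on the log2 scale, and SMIM1 by 1.70. DESeq2 gave no adjusted p for GYPB and SMIM1, and GYPB without IM 18h replicate 3 and SMIM1 without IM 18h replicate 2 had too few reads to be tested. SMIM1 lost its call with all 18 libraries in the fit, with the replicate number as a block, without a minimum of reads, with a minimum of 10 reads and without any one of the IM 1h libraries. At 1 h, 1 list gene had enough reads (SLC2A1, log2 fold change 0.42 against CTRLim, adjusted p = 0.766 from edgeR) and 0 were called, where 1.52% of all 988 genes were. In JTE 1h and KCl 45min against CTRL 0 list genes had enough reads.

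The megakaryocyte and platelet genes around FAXDC2 and TUBB1 gave another picture. Of 60 genes listed, 41 were in the table and 3 had enough reads at 18 h, and 0 of these 3 were called against CTRLim or IM 1h. Of all genes tested, 14.1% of 1386 were called against CTRLim and 18.3% of 1720 against IM 1h, so 0 of 3 says little. The median log2 fold change of the 3 was 0.07 against CTRLim and -0.16 against IM 1h. P2RY1, the ADP receptor of platelets, had 22.6 RPM ± 5.00 (SD, n = 2) in CTRLim and 15.5 ± 7.25 (SD, n = 3) in IM 18h, a log2 fold change of -0.33. GFI1B and NFE2, transcription factors of the megakaryocyte and red cell lineages, had log2 fold changes of 0.30 and 0.07 at 18 h. The summed level of the 41 genes was 48.1 to 71.1 RPM in the CTRLim libraries and 44.7 to 74.1 in IM 18h, and in IM 1h it was 78.5 to 89.1, above both. P2RY1 weighed heavily in this sum, with 25 of its 76 reads in CTRLim, 45 of 170 in IM 1h and 58 of 236 in IM 18h. TUBB1 and FAXDC2 thus stood higher at 18 h while the sum of the list without them overlapped with its control.

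**Figure D4:**
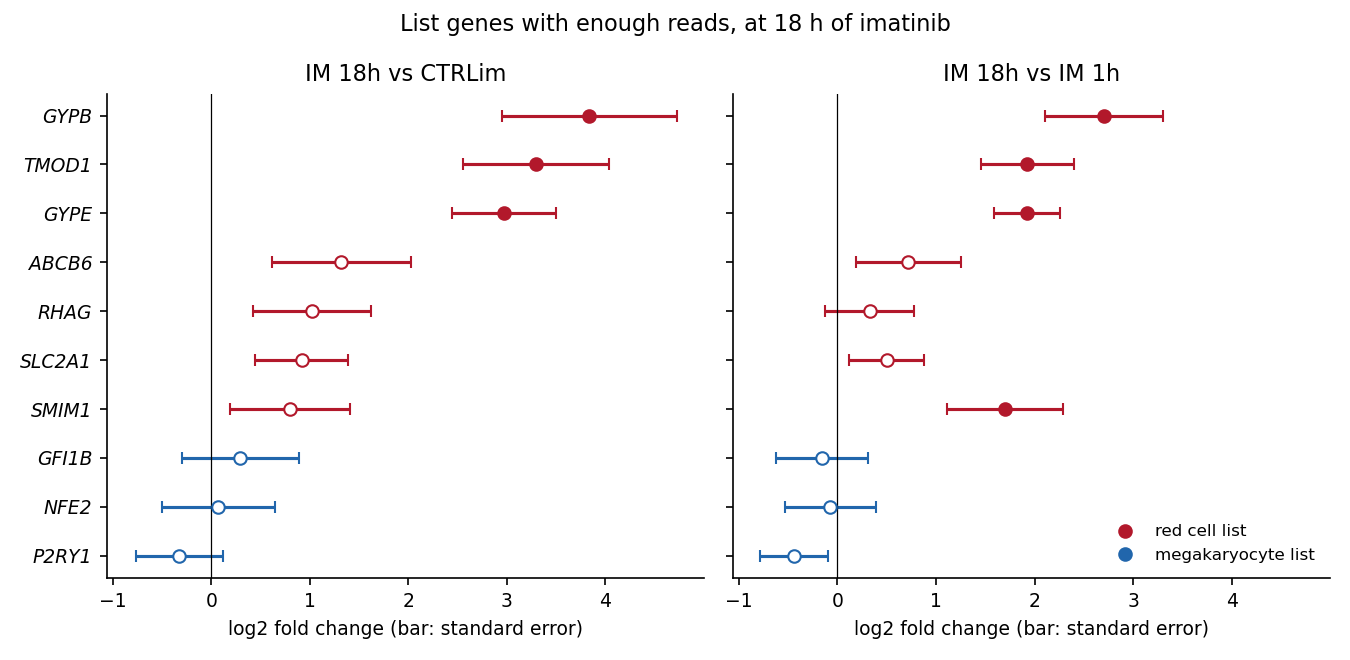
Log2 fold change (x axis) with its standard error of the list genes with at least 30 reads, at IM 18h against CTRLim and against IM 1h, with filled points for genes called by edgeR at an adjusted p under 0.05. The 7 red cell genes shown, of 48 in the table, lie to the right of 0 in both panels. A gene with few reads in the group compared with IM 18h could reach the minimum only by lying there. The 3 megakaryocyte genes shown, of 41, lie within 1 unit of 0 and were not called.

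Of the K562 erythroid markers, 6 had enough reads at 18 h against CTRLim, and 3 rose and 0 fell, where 5.19% of all 1386 genes tested rose and 8.95% fell. HBG1 rose from 333 RPM ± 132 (SD, n = 2) to 681 ± 33.2 (SD, n = 3), a log2 fold change of 1.21 (SE 0.217, adjusted p = 6.31e-05 from edgeR). The embryonic globin gene HBE1 had a log2 fold change of 0.82 and TAL1 of 0.95, with adjusted p = 0.00664 and 0.0231 from the same fit. The calls of HBE1 and TAL1 were lost with the libraries within sampling noise summed, with all 18 libraries in the fit and without CTRLim replicate 2 or 3, and that of TAL1 also in DESeq2 and with no minimum of reads. In these fits HBE1 had log2 fold changes of 0.60 to 0.81 (adjusted p = 0.0573 to 0.176) and TAL1 of 0.86 to 1.02 (adjusted p = 0.0577 to 0.128). HBG1 kept its call in every alternative of this comparison. KLF1, LMO2 and HBA2 did not pass, at 0.63, 0.16 and 2.45. HBG1 has a near copy, HBG2, and its reads share that uncertainty. The markers summed to 455 to 831 RPM in the CTRLim libraries and 1184 to 1271 in IM 18h, and their part in the levels of the 4 genes was not tested.

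Relatives of the 4 genes by family were compared by their levels. The 8 butyrophilin genes in the table, relatives of ERMAP, summed to a mean of 13.2 RPM in CTRLim and 11.6 in IM 18h. The 6 other beta tubulin genes, relatives of TUBB1, summed to 109 and 88.7 RPM, with TUBB at 87.8 ± 11.2 (SD, n = 2) and 73.3 ± 6.003 (SD, n = 3) and a log2 fold change of -0.19 (adjusted p = 0.667 from edgeR). The M13 endopeptidases with XK summed to 2.07 and 7.48 RPM. XK, the partner of the Kell protein in the membrane, made up most of the latter, with 0, 1 and 0 reads in CTRLim and 6, 9 and 9 in IM 18h, too few for the fit, and a pooled ratio of 8.49 (1.38 to 349). The hydroxylase genes SC5D and MSMO1, related to FAXDC2, summed to 8.54 and 13.5 RPM, and MSMO1 had a log2 fold change of 0.70 (adjusted p = 0.559 from edgeR).

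Of the neighbours whose reads might have been counted with those of the 4 genes, none with enough reads passed the test as higher under imatinib. ZNF691-DT, which covers the end of ERMAP, LLCFC1, the nearest neighbour past KEL, and ENSG00000289837, past TUBB1, had no counts and were not examined. LARP1, which faces FAXDC2, had a log2 fold change of 0.90 at 1 h against CTRLim (SE 0.355, adjusted p = 0.212 from edgeR), the time at which FAXDC2 stood apart. It had 0.40 at 18 h against CTRLim (adjusted p = 0.558 from edgeR) and -0.49 against IM 1h. ATP5F1E, a subunit gene of the mitochondrial ATP synthase that covers the end of TUBB1, fell by 1.10 on the log2 scale at 18 h against CTRLim (adjusted p = 0.0416 from edgeR). It fell by 1.13 against IM 1h (adjusted p = 0.00363 from the same test). Both calls were lost with TMM scaling, in DESeq2 and with all 18 libraries in the fit, where the log2 fold changes were -0.98, -1.11 and -1.10 against CTRLim (adjusted p = 0.0656 to 0.110) and -0.84, -1.13 and -1.12 against IM 1h (adjusted p = 0.0526 to 0.0761). The call against CTRLim was also lost per readthrough read, with no minimum of reads and with the libraries within sampling noise summed (-1.10 to -1.01), and without CTRLim replicate 1 (-1.11) or 3 (-0.60) or IM 18h replicate 2 (-0.80). The call against IM 1h was lost without IM 1h replicate 3 (-1.02). With CTRL as control the log2 fold change was 0.63 (adjusted p = 0.384 from edgeR), and with all 6 untreated libraries it was -0.51. ZNF691, past ERMAP, had 12 reads in CTRLim and 14 in IM 18h, and its log2 fold change against IM 1h was -1.07 (adjusted p = 0.167 from edgeR). TRPV5, past KEL, had 1 read in CTRLim and 0 in IM 18h. These counts are of readthrough past the neighbours' own ends, not of reads within them, so the part of the neighbours in the reads of the 4 genes was not tested.

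The promoters were read for the motif that GATA factors bind, since the 4 genes stood high in the same libraries. The letters AGATAA or TGATAA, on either strand, occur in 14.6% of the 35116 promoters of RefSeq (GRCh38.p14) in the 250 bases before the start. KEL held 2 matches and the ERMAP start that the counted transcript uses held 1, while FAXDC2, TUBB1 and a second ERMAP start 8438 nt away held 0. The sequences of KEL and ERMAP, in which capitals mark the matches, are shown because these were the ones with a match, which is a description of letters and not a sign of binding.
KEL, chr7:142962364-142962613, minus strand: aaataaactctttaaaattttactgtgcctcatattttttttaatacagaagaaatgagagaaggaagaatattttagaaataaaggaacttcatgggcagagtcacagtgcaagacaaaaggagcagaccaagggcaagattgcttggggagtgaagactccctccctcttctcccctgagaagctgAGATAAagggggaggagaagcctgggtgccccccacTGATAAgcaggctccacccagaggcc
ERMAP, chr1:42825311-42825560, plus strand: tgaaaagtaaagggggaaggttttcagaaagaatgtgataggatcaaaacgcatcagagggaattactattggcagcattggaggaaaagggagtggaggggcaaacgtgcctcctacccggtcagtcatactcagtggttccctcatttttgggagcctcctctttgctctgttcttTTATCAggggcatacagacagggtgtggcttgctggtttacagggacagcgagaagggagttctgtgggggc
Of other motifs, CACCC was present in each of the 4, and in 54.7% of all promoters. CANNTG, the E-box, was present in FAXDC2 alone and in 61.8% of all, and TGAGTCA, a match for NFE2 sites, in none of the 4 and in 4.20% of all.

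The genes whose levels were most like those of the 4 over the 18 libraries were found by Pearson's r of log2(RPM + 0.5) among 908 genes with at least 100 readthrough reads. The libraries share their set and depth, and the 4 genes have many zeros, so r is a description. For ERMAP these were TAL1 (r = 0.854), ARMCX5 (0.843) and ABHD5 (0.817). SOSTDC1 (0.789), CR1L (0.787) and CITED2 (0.774) came first for FAXDC2, and CR1L (0.776), ABHD5 (0.740) and RPS6KC1 (0.686) for TUBB1. KEL, the sparsest, was most like HEMGN (0.748), ZSCAN25 (0.685) and ENSG00000256206 (0.649). ABHD5 was thus named for ERMAP and TUBB1 and CR1L for FAXDC2 and TUBB1. Over the 9 libraries of the imatinib set the r of the named genes ran from 0.470 for ARMCX5 with ERMAP, where it ranked 111, to 0.920 for ZSCAN25 with KEL. Between the 4 genes themselves, r over the 18 libraries ran from 0.414 for ERMAP with KEL to 0.856 for FAXDC2 with TUBB1, and over the 9 libraries it was 0.901 and 0.956 for these pairs. HEMGN, which encodes a nuclear protein of blood-forming cells, had 2 reads in CTRLim, 10 in IM 1h and 82 in IM 18h. CR1L had 11, 23 and 119 reads in these groups.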

How the data were processed

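Per the labels and the methods of the study, the authors isolated chromatin-associated RNA, depleted poly(A)+ RNA and rRNA, ligated an adapter with a molecular identifier and sequenced cDNA over a size minimum, which leaves out short RNAs. They trimmed reads with cutadapt, mapped them with minimap2 to GRCh38.p14 and removed duplicates, polyadenylated reads, multiply mapped reads and splicing intermediates. The deposited values are raw counts of readthrough reads per transcript, and 12704 of 13051 transcripts were matched to GENCODE 44. Library totals are those the study gives after its filters. A readthrough index, which needs gene body reads, was not computed.

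The 4 genes, the gene lists and the tests were chosen with earlier results of these data known. Genes with at least 30 reads over the 6 libraries of a comparison were tested with edgeR 4.0.16 (glmQLFit and glmQLFTest, R 4.3.3) with library totals as library sizes and Benjamini-Hochberg adjustment over all genes tested. Calls had an adjusted p under 0.05. Where JTE 1h or KCl 45min left a gene below the minimum, the exact permutation test of RPM was used. Ratios of pooled levels carry exact Clopper-Pearson 95% intervals. A fold against 0 reads was bounded with 3 reads over the group. Named list genes were the called ones, up to 6 per imatinib comparison by adjusted p, and those named as not passing were chosen after their values were seen. A gene is not reported here and was left out of the lists and of likeness. Likeness was ranked over genes with at least 100 reads, 3 named per gene. Added after the data were seen were a fit with the libraries within sampling noise summed and a floor of 3 reads per library. Simulated counts for IM 18h against CTRLim held 1386 genes, 200 of them shifted by 2 on the log2 scale. Of the shifted genes edgeR called 163 (81.5%), with 7 of the 1186 others, and DESeq2 1.42.0 called 123 (61.5%), with 1 other. For KCl 45min and CTRL, deviations of same-numbered libraries from their group means correlated over 68 genes (0.219, 0.250 and 0.121). For JTE 1h and CTRL they did so over 162 genes (0.366, 0.0372 and 0.305). Whether the numbers pair the libraries is not given by the labels, and the exact permutation tests did not use them. Alternatives changed the scaling, the minimum, the test, the control and the libraries in the fit, and left out each library in turn. Levels, intervals and exact tests were computed in Python 3.11.15 with scipy 1.17.1, and figures drawn with matplotlib 3.10.9.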

Additional observations from a re-analysis of the deposited data

Results flagged for a closer look

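For 4 genes of the red cell list the effect of imatinib differed between 18 h and 1 h by a test of that difference, the direct comparison of the IM 18h with the IM 1h libraries in edgeR. The log2 differences were 1.93 for GYPE, 2.70 for GYPB, 1.93 for TMOD1 and 1.70 for SMIM1, each higher at 18 h. These genes had 21, 4, 9 and 6 reads in IM 1h and reached the minimum of 30 reads through IM 18h. GYPB, TMOD1 and SMIM1 therefore had to be higher there to be tested, while GYPE did not have to be. With no minimum of reads 3 of the 4 genes passed, SMIM1 not. The reads of GYPB and GYPE, which have near copies in their family, may be split between such copies by the mapping. SMIM1 had 7, 18 and 10 reads in IM 18h, 2, 0 and 4 in IM 1h and 1, 1 and 5 in CTRLim, and its level at 18 h was 1.77 times that of CTRLim with an exact 95% interval of 0.774 to 4.72. The 4 genes of the report were not tested in this way, because they were chosen on these libraries.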

How the results depend on the processing

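Of 294 alternative values, 268 kept their direction and their side of the threshold, moved within the spread of the libraries or, for a count of genes, stayed within 1.5 times. Such a count could still lose a gene, as where SMIM1 dropped out, and the spread of folds on 1 read is wide. The number of list genes called was 1 for IM 1h with CTRL as control (P2RY1, from 0), 1 and 2 in DESeq2 for IM 18h against CTRLim and IM 1h (from 3 and 4, where GYPB with TMOD1 and GYPB with SMIM1 got no adjusted p), and for KCl 45min 3 with a minimum of 10 reads and 2 with all 6 untreated libraries as control (from 0). For KEL at 18 h against CTRLim the fold became 8.78 with all 6 untreated libraries and the bound 1.61 with 3 reads per library as floor, and leaving out 1 library gave bounds of 2.77 to 5.51, lowest without CTRLim replicate 2. Against IM 1h the fold of ERMAP was 4.34 with TMM scaling and 4.19 per readthrough read, that of FAXDC2 4.05 with TMM, and the fitted log2 change of ERMAP 2.12 with TMM. The fold of TUBB1 at 1 h ranged from 0.822 to 5.50 when 1 library was left out, turning over without CTRLim replicate 2, and that of FAXDC2 from 2.35 to 13.8. Without CTRLim replicate 2, which holds the only control read of both, the 18 h folds were bounds of at least 7.76 for FAXDC2 and 6.28 for TUBB1.

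In JTE 1h against CTRL the sign was not stable. ERMAP was at -0.28 with TMM scaling and -0.23 per readthrough read on the log2 scale, and leaving out 1 library gave -0.27 to 0.65. With all 6 untreated libraries as control FAXDC2 and KEL lay 0.239 and 1.10 RPM above it, and leaving out 1 library gave differences of -2.11 to 0.659 for FAXDC2 and -1.28 to 0.894 for KEL. For TUBB1 in KCl 45min they were -0.529 to 1.38 RPM. ERMAP did not pass the edgeR test in any of these fits, and the exact tests of the others could pass only with all 6 untreated libraries as control, where FAXDC2 and KEL in JTE 1h and TUBB1 in KCl 45min had exact p = 0.929, 0.405 and 0.524.

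The replicate number as a block gave 3 list genes at 18 h against CTRLim and 3 against IM 1h, where SMIM1 dropped out, and 0 in the other comparisons, KCl 45min included. ERMAP in JTE 1h had a log2 change of 0.07 with the block. Correlations of the deviations of same-numbered libraries ran from -0.09 to 0.37 over all comparisons. They were all positive for KCl 45min, for JTE 1h (0.366, 0.0372 and 0.305) and for IM 18h against CTRLim (0.0920, 0.0496 and 0.123). For IM 1h against CTRLim and IM 18h against IM 1h they had both signs. Whether the numbers pair the libraries was thus not settled. With the libraries within sampling noise summed, a fit added after the data were seen, 3 and 4 list genes were called. Groups with 0 to 3 reads set the limit throughout. Over all genes, calls at 18 h against CTRLim numbered 196, 105 in DESeq2 and 113 with all 18 libraries in the fit, and against IM 1h 315, 108 and 112.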

Other observations

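The alpha globin genes, which adult and fetal red cells share, were sparse in these libraries. HBA2 had 0, 1 and 1 reads in IM 1h and 2, 9 and 23 in IM 18h, a log2 fold change of 3.10 (SE 0.773, adjusted p = 0.00177 from edgeR). Replicate 3 of IM 18h held 23 of the 34 reads, and the call was lost without IM 1h replicate 3 (adjusted p = 0.0517 from edgeR). Against CTRLim, which had 0, 1 and 1 reads, the log2 fold change was 2.45 (adjusted p = 0.0578 from edgeR). CTRL had 9 reads, and with it as control the log2 fold change at 18 h was 0.11 (adjusted p = 0.927 from edgeR), across the library sets. With all 6 untreated libraries as control it was 0.91 (adjusted p = 0.395 from edgeR). DESeq2 gave no adjusted p for HBA2, and without IM 18h replicate 2 or 3 it had too few reads to be tested. HBA1 had a log2 fold change of 0.99 between 18 h and 1 h (adjusted p = 0.254 from edgeR). The 2 genes are near copies, so that their reads may be split between them. GATA1 had 1, 2 and 2 reads in CTRLim, 5, 3 and 5 in IM 1h and 3, 2 and 4 in IM 18h, too few for a test at this depth.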
